A study of Homo sapiens with 7 samples.

Results

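Broad stretches of H3K27ac that stand apart from dense groups of peaks were described in day 15 cardiac cells. H3K27ac is an acetyl mark on the tail of histone H3. The members were 2129 peaks of at least 1500 bp in a list of 36596, of which 36585 lay on chromosomes 1 to 22, X or Y. They made up 5.82% of the peaks on those chromosomes and 20.3% of the bases that peaks covered. The members were chosen by their measured width and by their surroundings: peaks with gaps of at most 12.5 kb were joined into regions, and a peak in a region of 10 or more peaks was left out. By that rule 442 further broad peaks fell into dense clusters, and 34014 peaks were narrower, 28343 of them outside dense clusters and 5671 inside.

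The cells were grown from H1, a human embryonic stem cell line in wide use, and carried to day 15 of cardiac differentiation with CHIR, the short name of CHIR99021, which inhibits the kinase GSK3 and so switches on canonical Wnt signalling. The series title sets the work in the making of atrioventricular canal heart muscle. The peak list joins H3K27ac replicates 1 and 2 of this 1 condition. Input chromatin and the 3 single-cell RNA libraries of the series were not analysed here. The labels give no dose and no time of addition for CHIR, call the sample cardiac cells in one field and cardiomyocytes in another, and do not say whether the replicates came from separate cultures. All cells came from this 1 line. The chromatin came from whole cultures, so a mark present in every cell and a stronger mark in a fraction of the cells cannot be told apart. No peak was tied to a gene, since no hg19 annotation was used here, so the label of the cells was not checked against marker genes.

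H3K27ac is placed by the acetyltransferases CBP and EP300 on nucleosomes that flank the open core of active promoters and enhancers. A regulatory element therefore often shows acetylated nucleosomes on both sides of a gap. Wide stretches of the mark are known from promoters of strongly transcribed genes, where acetylation runs into the gene body. Groups of acetylated elements within a short distance that rank highest in total signal are known as super-enhancers and are common near genes of cell identity. The joining gap used here is one in wide use for finding such groups, and the members are the broad peaks that this rule leaves over. The rule counts peaks and ranks no signal, so neither dense clusters nor members were sorted into super-enhancers and others.

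Members were between 1501 and 8246 bp wide, with a median of 1906 bp (quartiles 1661 and 2253 bp). Peaks under 1500 bp had a median of 354 bp (232 and 622 bp). Most members were only a little wider than the limit: 1235 of them (58.0%) were under 2000 bp, 134 reached 3000 bp and 36 reached 4000 bp. Widths ran across the limit without a break. Here and below, each band includes its lower bound and not its upper one. Outside dense clusters, 413 peaks were 1400 to 1500 bp wide and 334 were 1500 to 1600 bp wide, with median fold enrichments of 16.5 and 17.6. The 3 members closest above the limit were all 1501 bp wide and had fold enrichments of 7.79 (hg19, chr1:43472931-43474431), 41.3 (chr2:44222316-44223816) and 22.3 (chr5:60628039-60629539). The 3 peaks closest below it were all 1499 bp wide and had 44.0 (chr12:98987411-98988909), 13.3 (chr15:66161446-66162944) and 14.0 (chr17:47768028-47769526). The fold enrichments of these groups of 3 overlap.

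The 5 widest members spanned 5116 to 8246 bp. The widest lay at chr1:16339050-16347295, was 8246 bp wide and had a fold enrichment of 26.96, with its summit at 73.2% of its width and its nearest neighbour 6230 bp away. The member at chr10:77157952-77164892 was 6941 bp wide with a fold enrichment of 33.8, and it had peaks 179 bp to its left and 210 bp to its right in a region of 8 peaks. The member at chr18:3447067-3452956 was 5890 bp wide and had the lowest fold enrichment of these 5, at 16.7. Those at chr1:234742857-234748533 (5677 bp) and chr1:27019683-27024798 (5116 bp) had fold enrichments of 37.3 and 27.9, and each had a neighbour under 100 bp away, at 83 and 54 bp. Of these 5, 3 lay on chromosome 1, and 3 stood in regions of 6 to 9 peaks, close to the 10 that would have placed them in a dense cluster.

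Fold enrichment is the height of a peak at its summit relative to a local background, as the authors' peak caller reported it. It describes peaks within this list only. Since width and fold enrichment are read from the same signal and width chose the members, the values are a description with no test, and no replicate spread exists for them. The median over members was 19.9 (quartiles 13.7 and 27.8, lowest 3.60, highest 67.5). Over peaks under 1500 bp it was 5.51 (4.53 and 7.87, lowest 2.25, highest 78.7). The ratio of these medians was 3.61. Of the members, 75.6% lay above 13.4, the 90th percentile of the narrower peaks. The broad peaks of dense clusters stood between, with a median of 12.9 (9.15 and 19.4), though they were somewhat wider than the members (median 2052.5 bp). Thus the members overlapped with narrower peaks in fold enrichment but were concentrated at the top of the range.

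Outside dense clusters the median fold enrichment rose with width up to about the range of 2000 to 2500 bp and was nearly level beyond it. It was 4.98 below 500 bp, 8.65 from 500 to 1000 bp, 14.9 from 1000 to 1500 bp, 18.1 from 1500 to 2000 bp and 22.8 from 2000 to 2500 bp. In the 3 wider bands it was 21.5, 23.0 and 21.6, over 179, 98 and 36 members. Across peaks the Spearman correlation of width and fold enrichment was 0.70 for the 28343 narrower peaks outside dense clusters and 0.18 for the 2129 members. The points share 1 list and 1 local background method, and the correlations are given as a description. The members cover a shorter range of log width than the narrower peaks, and the part this plays in the smaller correlation was not tested.

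**Figure D1:**
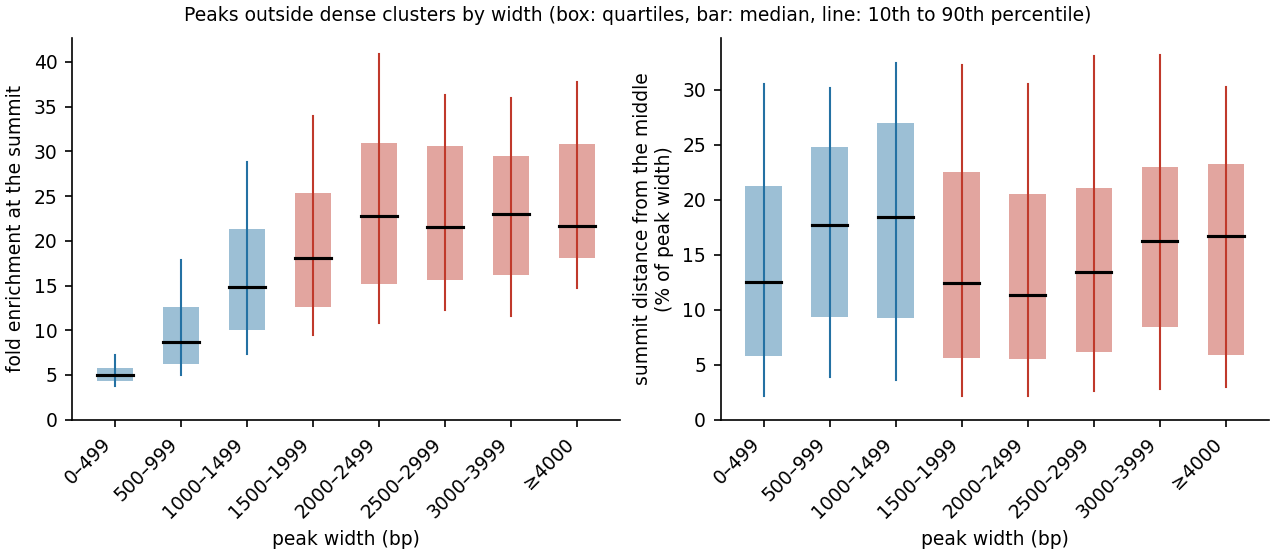
Peaks outside dense clusters in 8 bands of width (bp), with fold enrichment at the summit on the left and the distance of the summit from the middle of the peak, as a percent of its width, on the right. Boxes are quartiles, black bars medians and lines the 10th to 90th percentiles over peaks; red marks peaks of at least 1500 bp. Median fold enrichment climbs from 4.98 to 22.8 and then stays level, and the summit distance is smallest in the 2000 to 2500 bp band, at 11.3%.

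Read from the other side, members were rare among weak peaks and common among strong ones. They were 6 of 12948 peaks with a fold enrichment under 5 (0.0463%) and 204 of 15651 between 5 and 10 (1.30%). Their share was 12.5% between 10 and 15, 22.1% between 15 and 20, 36.7% between 20 and 30, 48.7% between 30 and 40, and 59.4% (151 of 254) at 40 or more. High enrichment did not require width. At 40 or more, 94 peaks outside dense clusters were under 1500 bp, with a median width of 1110.5 bp, and the highest fold enrichment of the list, 78.7, belonged to one of these narrower peaks.

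The 5 members of highest fold enrichment ranged from 63.9 to 67.5. They were at chr2:122287064-122288806 (67.5), chr3:187461947-187464129 (65.8), chr2:47402363-47404400 (65.3), chr7:104651760-104656159 (65.1) and chr9:91932851-91934746 (63.9). Among them, 4 were 1743 to 2183 bp wide and the one on chromosome 7 was 4400 bp wide. The summit of the chromosome 7 member stood near its middle, at 47.9% of the width, whereas those of the other 4 stood at 72.0%, 66.7%, 71.1% and 34.9%. The chromosome 3 member and the one at chr2:47402363-47404400 were alone in their regions, 406656 and 15122 bp from the nearest other peak.

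The depth behind each peak could be read back from the deposited values. With the fold enrichment taken as (pileup + 1) / (background + 1) and the p-value as the Poisson chance of more reads than the pileup at that background, a whole-number pileup met the deposited −log10 p-value within 0.005 for all 36596 peaks. With the chance of at least as many reads in place of more, that was so for 1.75% of 2000 peaks drawn at random. The pileup is the number of reads, extended as the caller extends them, that overlap the summit. The background is the local expectation on the same scale, and the sources used here do not state how it was built.

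Members had a median summit pileup of 100 reads (quartiles 71 and 140, lowest 24, highest 316). Narrower peaks outside dense clusters had a median of 25 reads (20 and 39), and broad peaks in dense clusters 66 reads (47 and 100). The background differed far less than the pileup. Its median was 3.82 for members (3.17 and 4.78) and 3.49 for narrower peaks outside dense clusters (2.88 and 4.32). A local background at the lowest level of the list, 2.59, was found in 70 members (3.29%) and in 2327 of the narrower peaks outside dense clusters (8.21%). Counting error follows from these depths: the pileup of a typical narrower peak rests on few reads, and that of a typical member on several times as many.

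A high background was more frequent among members of low fold enrichment than among the rest. Of the 210 members with a fold enrichment under 10, 21 (10.0%) had a background of at least 3 times the lowest level, against 33 of the other 1919 (1.72%). The 5 members of lowest fold enrichment were at chr9:137598723-137600323 (3.60), chr14:23904588-23907361 (3.80), chr15:89084987-89086988 (4.38), chr11:57406666-57408203 (4.74) and chr5:153854891-153856494 (4.95). Their pileups were 37, 50, 41, 40 and 27 reads, and their backgrounds 9.55, 12.4, 8.60, 7.64 and 4.65. All 5 thus held more reads at the summit than a typical narrower peak (25), the first 4 of them over a background of 7.64 or more. The fold enrichment has the background in its denominator, so this relation is in part a matter of definition. In all, 54 members (2.54%) and 239 narrower peaks outside dense clusters (0.843%) passed 3 times the lowest background. Those 54 members had a median pileup of 112.5 reads and a median fold enrichment of 10.9, whereas the other members had 100 reads and 20.1.

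**Figure D2:**
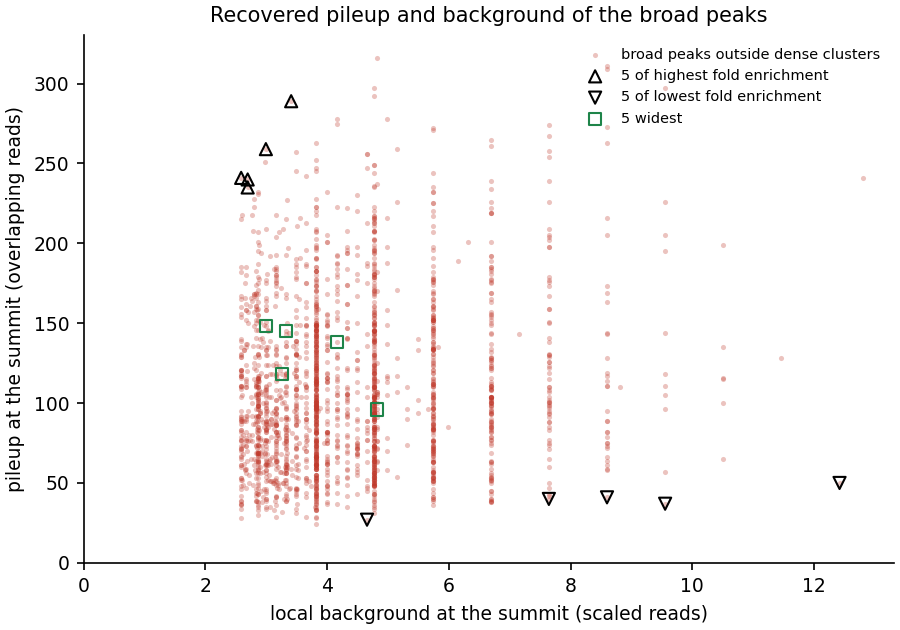
Pileup at the summit (overlapping reads) against local background at the summit (scaled reads) for the 2129 broad peaks outside dense clusters, 1 point each. Symbols mark the 5 members each of highest fold enrichment, of lowest fold enrichment and of greatest width. Points stand in columns because the background takes a limited number of levels; the 5 highest folds combine pileups of 235 to 289 reads with backgrounds of 2.59 to 3.41, and 4 of the 5 lowest lie at backgrounds of 7.64 or more.

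The summit of a member, the base with the highest signal, usually lay toward the middle of the peak. The median distance from the middle was 12.5% of the width (quartiles 5.68% and 21.8%). It was 14.3% (6.74% and 23.2%) in narrower peaks outside dense clusters and 17.8% (8.45% and 29.9%) in broad peaks of dense clusters. In base pairs, the summit of a member stood a median of 717 bp from the nearer edge (533 and 877 bp), against 129 bp (83 and 203 bp) in narrower peaks outside dense clusters. This distance is bounded by the width of the peak and reached at most 746 bp in those narrower peaks. The width limit that chose the members thus largely sets this difference. The central 2 of 10 equal parts of the peak held the summits of 40.7% of members, 36.3% of narrower peaks outside dense clusters and 30.3% of broad peaks in dense clusters. The outermost parts, 1 at each end, held 1.74%, 2.06% and 3.17%. The profile of the members was close to symmetric, with 20.4% of summits in the part left of the middle and 20.2% in the part right of it.

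**Figure D3:**
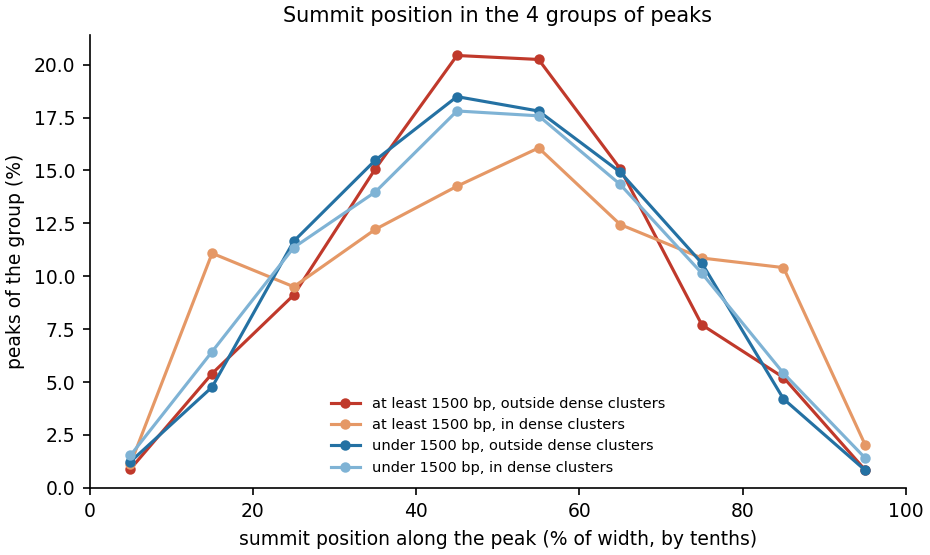
Share of summits (percent of each group) in 10 equal parts along the peak, from its left edge to its right edge, for the 4 groups of peaks. Members, in dark red, reach 20.4% and 20.2% in the middle parts, more than any other group, while broad peaks of dense clusters, in orange, hold 11.1% and 10.4% in the second part from each end.

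The relation of summit position to width was not a steady one. Outside dense clusters the median distance from the middle was 12.6% below 500 bp, rose to 17.7% and 18.4% in the bands of 500 to 1000 and 1000 to 1500 bp, and was 12.5% and 11.3% in the bands of 1500 to 2000 and 2000 to 2500 bp. It was 13.5%, 16.2% and 16.7% in the wider bands, which held 313 members together. The change did not fall at the limit itself, since the median was 16.9% at 1300 to 1400 bp, 14.3% at 1400 to 1500 bp, 13.7% at 1500 to 1600 bp and 11.8% at 1600 to 1700 bp. Setting peaks of like fold enrichment side by side gave a wider difference than the groups as a whole. At fold enrichments of 20 to 30, the median distance was 11.8% in 625 members and 16.7% in 972 narrower peaks outside dense clusters. At 30 to 40 it was 9.90% in 281 members and 19.1% in 253 narrower peaks. Among weaker peaks the order was the other way round: at 5 to 10 it was 16.3% in 204 members and 12.5% in 12714 narrower peaks, and at 10 to 15 it was 16.5% and 14.8%.

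Within the members, those with no close neighbour had the most central summits. The median distance from the middle was 11.0% in 1293 members (60.7%) with no other peak within 500 bp, 14.9% in 711 (33.4%) with a peak on 1 side and 20.5% in 125 (5.87%) with peaks on both sides. The same 3 sets of narrower peaks outside dense clusters showed 14.2%, 14.4% and 15.1%. Those of broad peaks in dense clusters showed 14.9% (115 peaks), 19.0% (218) and 21.2% (109), so the rise was not particular to the members. Where a member had a neighbour on 1 side only, its summit lay on the side of that neighbour in 424 of 711 cases (59.6%). In narrower peaks outside dense clusters this was so in 7198 of 12273 cases (58.6%), close to the share of the members. Fold enrichment ran in the opposite order to the summit distance, with medians of 20.4, 19.5 and 15.6 for members with neighbours on neither, 1 or both sides.

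Spacing fell into 2 ranges, in members and in narrower peaks outside dense clusters alike. Many members had a close neighbour, many others stood far from any peak, and fewer lay between. Of the narrower peaks outside dense clusters, 15.2% had a nearest gap of 178 to 316 bp. Only 3.15% had one of 1000 to 1778 bp, and 6.27% had one of 17783 to 31623 bp. Of the members, 10.6%, 2.40% and 8.13% had a nearest gap in these same ranges. The median gap from a member to the nearest other peak was 3617 bp, between quartiles of 189 and 30805 bp. The median depended on the rule for dense clusters, which sets the members: it was 1575 bp when only regions of 20 or more peaks counted as dense (2407 members) and 10182 bp when regions of 5 or more did (1699 members). For narrower peaks outside dense clusters the median was 505 bp (174 and 13040 bp). The lower quartiles were thus close, and the groups parted in the upper range. Of the members, 804 (37.8%) were alone in their region, against 7196 narrower peaks outside dense clusters (25.4%). This difference did not fall at the width limit. The share of narrower peaks alone was 23.5% below 500 bp, 26.0% from 500 to 1000 bp and 36.6% from 1000 to 1500 bp. Close to the limit it was 42.5% at 1300 to 1400 bp and 40.7% at 1400 to 1500 bp, against 37.7% at 1500 to 1600 bp and 40.3% at 1600 to 1700 bp. Among members the share that stood alone was 40.6% at 1500 to 2000 bp, 36.5% at 2000 to 2500 bp, 33.0% at 2500 to 3000 bp, 25.5% at 3000 to 4000 bp and 19.4% (7 of 36) at 4000 bp or more.

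At like fold enrichment the difference between members and narrower peaks in standing alone varied from band to band. At 5 to 10 the shares were 26.5% (54 of 204) and 23.1% (2940 of 12714), and under 5 they were 1 of 6 members and 23.5% of 10266 narrower peaks. At 20 to 30 the shares were 250 of 625 and 395 of 972 (40.6%), at 15 to 20 they were 37.6% and 36.0%, and at 10 to 15 they were 32.9% and 31.1%. At 30 to 40 they were 45.9% (129 of 281) and 36.4% (92 of 253), and at 40 or more 44.4% (67 of 151) and 39.4% (37 of 94). In the 3 bands from 10 to 30 the shares differed by less than 2 percentage points, against 37.8% and 25.4% in the groups as a whole.

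**Figure D4:**
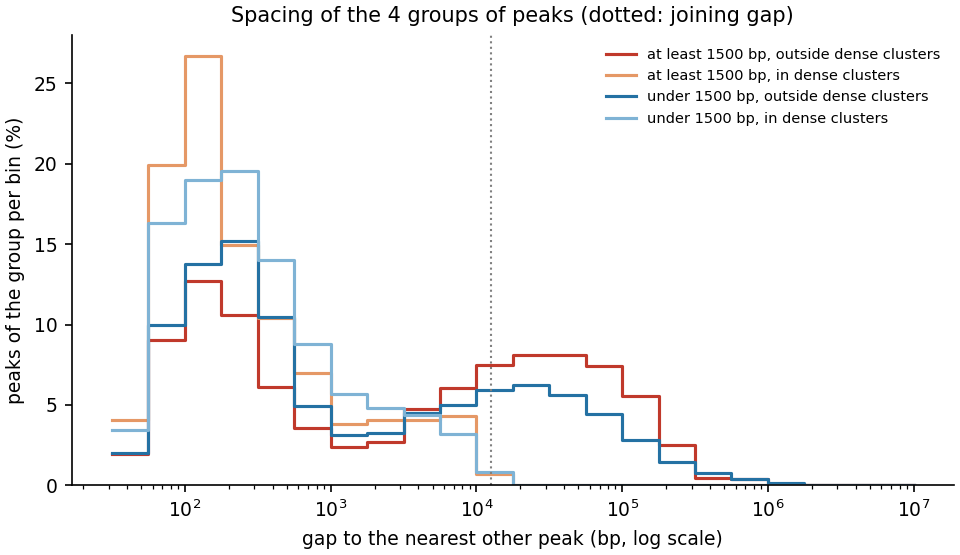
Gap from each peak to the nearest other peak (bp, log scale) as the percent of each group per bin, for the 4 groups of peaks; the dotted line is the joining gap of 12.5 kb. Members, in dark red, show 2 modes, 1 on each side of the median, with quartiles of 189 and 30805 bp. Narrower peaks outside dense clusters show 2 modes as well.

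The members that stood farthest from any other peak were mostly of ordinary width. The largest gap, 4158234 bp, was that of the only member on the Y chromosome, at chrY:2802735-2804451 (1717 bp, fold enrichment 43.2), where the list held 20 peaks. The next were at chr20:11871456-11873077 (1022133 bp from the nearest peak), chr10:53458172-53460077 (958009 bp), chr6:45344599-45346336 (911688 bp) and chr8:53625626-53628083 (812788 bp). Their fold enrichments were 11.9, 31.2, 14.8 and 44.9, so far-standing members were not all strong. The members on chromosomes 20 and 6 had backgrounds of 7.64 and 6.69, above the upper quartile of the members (4.78), under pileups of 102 and 113 reads.

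Where members had company, they were mostly its strongest peak. In regions of 2 to 9 peaks, 1061 of 1325 members (80.1%) had the highest fold enrichment of their region. The share was 92.7% in regions of 2 peaks and 55.2% in regions of 9. Of 1204 such regions whose widest peak was a member, the widest peak was also the highest in 84.8%, whereas it was in 69.6% of 6140 regions whose widest peak was under 1500 bp. These 2 sets of regions were not matched for their number of peaks. The peaks next to members within 500 bp were narrow and weak, with a median width of 361 bp (235 and 622 bp) and a median fold enrichment of 5.53 (4.60 and 7.78), values near those of the narrower peaks at large. Only 80 of these 961 neighbours (8.32%) were higher than the member beside them, and the median ratio of neighbour to member was 0.339. For narrower peaks outside dense clusters, 8357 of 15981 neighbours within 500 bp (52.3%) were higher, with a median ratio of 1.03. Only 911 of these 15981 neighbours (5.70%) were broad. The others formed pairs of narrower peaks, each pair counted from both sides. This share and ratio were therefore largely set by the counting and are no benchmark for the members. Members were chosen by width, which went with fold enrichment in this list, and the part this plays was not tested.

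Other broad peaks were about as far from members as from narrower peaks outside dense clusters. The median distance from a member to the nearest other broad peak was 199401 bp (60644 and 552627 bp) over the 2128 members with another on their chromosome, and 198 of these (9.30%) had one within the joining gap. Narrower peaks outside dense clusters were at a median of 181032 bp from a broad peak, and 9.99% had one within the joining gap. The rule leaves out broad peaks of crowded regions, and 221 of the 442 in dense clusters had another broad peak within that gap. The 2129 members lay in 2008 regions, of which 1900 held 1 member, 96 held 2, 11 held 3 and 1 held 4. These were 13.1% of the 15344 regions of fewer than 10 peaks. Members were weaker in more crowded regions: the median fold enrichment was 21.1 in members that stood alone, 21.5 in regions of 2, 18.0 in regions of 4 and 15.6 in regions of 9, while the median background stayed between 3.82 and 3.99 and the median pileup went from 108 reads in members that stood alone to 77 in regions of 9.

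Members occurred on all 24 chromosomes, as 3.58% to 8.36% of the peaks there. The highest share was on chromosome 6 (143 of 1711 peaks) and the next on chromosome 4 (106 of 1295, 8.19%). The lowest was on the X chromosome (22 of 614), followed by chromosomes 21 (19 of 471, 4.03%), 22 (44 of 1082, 4.07%) and 19 (102 of 2406, 4.24%). Chromosome 19 also had the highest share of peaks in dense clusters, 29.0%, which takes broad peaks out of the members: counted with those in dense clusters, its share of broad peaks was 6.32%, and the lowest stayed that of the X chromosome at 3.58%. On the autosomes the median fold enrichment of members ran from 17.3 on chromosome 15 to 23.9 on chromosome 21, and their median width from 1716 bp on chromosome 21 to 1986 bp on chromosome 17, with 60, 19 and 121 members on chromosomes 15, 21 and 17.

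**Figure D5:**
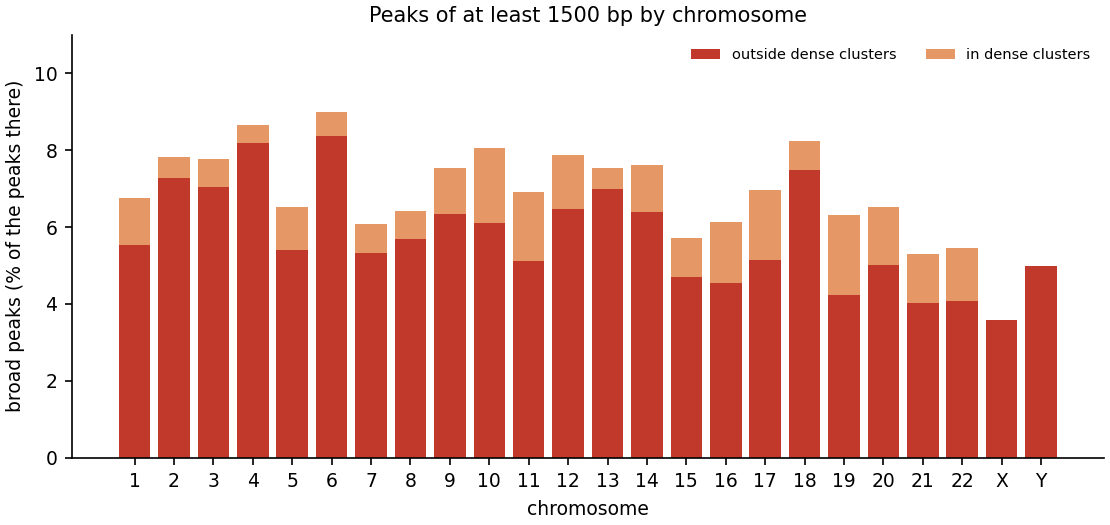
Peaks of at least 1500 bp as a percent of all peaks on each chromosome, split into those outside (dark red) and in (orange) dense clusters. The dark red part runs from 3.58% on X to 8.36% on chromosome 6, and the orange part is absent on X and Y.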

How the data were processed

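H3K27ac chromatin immunoprecipitation in day 15 CHIR cells was read from 1 peak list that merges replicates 1 and 2, per the labels. Per the submitters' processing notes, Bowtie2, MACS2 and hg19 were used, and their versions, settings and read totals were not among the details used. The deposited columns used were start, end, summit, the linear fold (a ratio to local background), and −log10 of the p-value and q-value. The deposited score was 10 times the −log10 p-value rounded down in 99.9% of peaks. The smallest −log10 p-value was 5.02, the narrowest peak 174 bp (1370 peaks) and the smallest gap 51 bp, so weaker or narrower signal is not in the list, nor are closer pairs of peaks.

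Coordinates were given from 1. Regions were joined in Python 3.11.15 and checked against bedtools 2.31.1. Pileups were recovered with scipy 1.17.1. Both steps were tested on simulated data. Regions named are the 5 widest, strongest, weakest and most distant members and the 3 peaks on each side of the width limit. No test between samples could be made from 1 merged list, so medians, quartiles (lower and upper, in parentheses) and shares over peaks are given, which carry no replicate error. Peaks off the assembled chromosomes, genes and base composition were left out. The members and the measures were chosen with earlier results of these data known.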

Additional observations from a re-analysis of the deposited data

How the results depend on the processing

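Of 78 values (6 results under 13 alternatives), 15 could not move by construction: all 6 when touching peaks were joined, as none touch, 5 when only the comparison peaks were changed, and 4 medians of narrower peaks, which no rule on regions touches. Of the other 63, 27 stayed within the 95% order-statistic or exact binomial interval of the main value, or within 1.5 times for the number of members, and 36 moved. The intervals treat the peaks of 1 merged list as independent, and they serve only as limits for counting a value as moved. They measure no replicate error. In the 12 alternatives other than joining touching peaks the members' median fold enrichment was above that of narrower peaks, with ratios from 2.71 to 4.06. Each alternative still chose members by width, which rose with fold enrichment over all 36585 peaks (Spearman correlation 0.73). A joined peak also took the values of its highest part. The order of the medians could therefore hardly reverse, and only the size of the ratio is informative. A least width of 1000 bp gave 4915 members with a median fold enrichment of 16.8 and a summit distance of 15.8%, against 5.30 in narrower peaks. A least width of 2000 bp gave 894 members, 22.6, 5.58 in narrower peaks, a nearest gap of 2214.5 bp and 33.9% alone. A joining gap of 5000 bp gave 19.4, 1843.5 bp and 43.0% alone, and one of 25000 bp 6129 bp and 32.6%. Alone here means no other peak within the altered gap, so these 2 shares are not like for like with the main share. Dense clusters of 5 or more peaks gave 20.6, 10182 bp and 47.3% alone, and of 20 or more 19.2, 1575 bp and 33.4%. Peaks with a −log10 q-value of at least 5 left narrower peaks at 5.64. Peaks with a fold enrichment of at least 5 gave 19.2, 6.97 in narrower peaks, 8305.5 bp and 44.4% alone. Narrower peaks outside dense clusters had 5.58. Joining peaks over gaps of at most 200 bp, chosen after seeing the data, gave 3458 members, 17.3, 8470 bp and 43.7% alone. Joining at 500 bp, also chosen then, gave 4740 members, 15.1 against 5.56, a summit distance of 14.0%, 10676.5 bp and 46.8% alone. Stricter limits and joining change which peaks enter and which gaps remain, and no other cause was tested. Joining takes every gap up to its limit out of the list, so the nearest gaps after joining are not like for like with the main value. Leaving out chromosomes X and Y changed none of the 6 results beyond these limits. No replicate could be left out, and no paired analysis was possible because both H3K27ac replicates were deposited as 1 merged list.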

Other observations

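Many stretches of H3K27ac as wide as the members were listed as several narrow peaks. When peaks with gaps of at most 200 bp were joined, 1398 stretches of at least 1500 bp consisted of narrower peaks alone, and 911 of these had 2 parts. Peaks in dense clusters were included in all stretches counted here, unlike in the members. Their median width was 1822 bp, and the median fold enrichment of their highest part was 12.8 (quartiles 8.72 and 18.9), against 18.9 in the 200 bp joined stretches that held a broad peak. At gaps of at most 500 bp there were 2623 such stretches, with a median of 3 parts, a width of 1905 bp and a highest fold enrichment of 11.1. At 100 bp there were 501.

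Members on the X chromosome had a median background of 2.59, the lowest level of the list, which 14 of 22 reached (63.6%), against 55 of 2106 members on the autosomes (2.61%). Their median pileup was 89.5 reads (quartiles 51.5 and 113), against 101 (71.25 and 140) on the autosomes, and their median fold enrichment 23.2 (13.9 and 28.6), against 19.9 (13.7 and 27.8). On X the pileup was thus on the lower side and the fold enrichment on the higher side, with quartiles that overlap in both. Narrower X peaks outside dense clusters had a median pileup of 26 reads and a fold enrichment of 7.07, against 25 and 5.58 on the autosomes, and 71.3% of them were at the lowest background. The list also held 11 peaks on 4 unplaced or unlocalised sequences, 2 of them at least 1500 bp wide, with fold enrichments of 2.84 to 15.7.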
